A study of Bos taurus with 12 samples.

Results

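The solute carrier (SLC) genes are the transporters that move nutrients, metals, ions, vitamins and signalling amines across membranes. Here their transcripts were followed in peripheral white blood cells (PWBCs) of beef heifers that did or did not become pregnant. The members were all genes whose symbol starts with SLC and a digit, whose identifier is paired with that symbol in the tables supplied with the study, and which had 10 or more counts in at least 6 of the 12 libraries. There were 60 such symbols and all 60 met the count rule, out of 27607 genes in the count table and 13012 genes tested. The RefSeq gene table of the ARS-UCD2.0 assembly holds 364 protein-coding SLC symbols, so the members are 16.5% of the family by name. Those tables include lists chosen on these same libraries, and 5 of the 60 members are in the list of differentially expressed genes: SLC6A4, SLC39A8, SLC20A2, SLC27A3 and SLC13A3. All members also stand in the study's lists of co-expressed gene pairs or gene-protein pairs, made on these same libraries. The members are therefore not a neutral sample of the family.

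Most SLC proteins move their solute without direct use of ATP. They let a solute run down its own gradient, couple it to sodium, protons or another ion, or exchange it for a second solute. White blood cells use them to take up glucose, amino acids and choline for growth, to handle iron, zinc and copper, and to load mitochondria with nucleotides, cofactors and fatty acid derivatives. Platelets, which can be carried along with white blood cells, use SLC6A4 to take up serotonin from plasma.

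The heifers were Simmental-Angus crosses, synchronised with GnRH, a progesterone insert and prostaglandin, and their blood was drawn 2 days before artificial insemination (AI). Fertile heifers (labelled Pregnant, n = 6) conceived to that AI. Subfertile heifers (labelled Open, n = 6) did not conceive to AI or to a later 60 days of natural service. The labels give no treatment that differed between the groups, 1 heifer in each group had a reproductive tract score of 5 and the others 4, and each heifer gave 1 library. The groups rest on the outcome of 1 breeding season, and PWBCs are a mixture of cell types.

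Total counts per library ran from 14010736 to 21278761, and the members held between 0.309% and 0.405% of them. Levels are given as CPM, the counts scaled to a common library size after TMM normalization, and log2 fold changes (log2FC) are subfertile against fertile, so that a negative value is a lower level in subfertile heifers. CPM is not divided by transcript length, so levels are compared between heifers and never between genes. Of the 60 members, 54 had 10 or more counts in every library. The members nearest to the count rule were SLC39A8, which reached 10 counts in 8 libraries, SLC5A7 in 9 and SLC2A9 in 10, and no paired SLC symbol fell outside it. The labelled cells were checked through the few markers with a paired identifier. The T cell marker CD3E stood between 322 and 740 CPM over the 12 heifers, the B cell marker CD79A between 335 and 719 CPM, and the summed level of 3 monocyte markers (VCAN, CD68 and FCN1) between 28.6 and 428 CPM. The summed level of 5 platelet markers (ITGA2B, ITGB3, GP9, GP5 and TUBB1) ran from 528 to 9922 CPM, with its highest value in fertile heifer 6. TUBB1 and ITGB3 made up most of it, at 7705 and 1930 CPM in that heifer, where GP9 and GP5 stood at 31.2 and 8.76 CPM. Likewise FCN1, at 16.6 to 342 CPM, made up most of the monocyte sum. Each sum therefore rests mainly on 1 or 2 transcripts.

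Between subfertile and fertile heifers most SLC transcripts had a log2FC near 0. The median log2FC of the members was -0.03, beside 0.01 over all genes tested, with 34 members below 0 and 26 above. For 51 members (85%) the absolute log2FC was under 0.5, beside 92.6% of all genes tested, and the median absolute log2FC was 0.126 for the members and 0.112 for all genes. The 95% interval of the log2FC lay wholly inside -0.5 to 0.5 for 29 members, and for the other 31 these libraries leave room for a larger difference. The zinc and manganese importer SLC39A8 and the serotonin transporter SLC6A4 passed both thresholds in edgeR (an absolute log2FC of at least 0.5 with an unadjusted P no higher than 0.05), and both were lower in subfertile heifers. This is 2 of 60 members, where 1.4% of all genes tested passed the same thresholds (0.738% lower and 0.661% higher). Among only the genes with a paired symbol, 5.16% passed.

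DESeq2 at the same thresholds passed 5 members (3 lower and 2 higher), the 5 that are in the study's list of differentially expressed genes. It added the phosphate importer SLC20A2, lower in subfertile heifers, and the dicarboxylate transporter SLC13A3 and the fatty acid transport protein SLC27A3, both higher. The share over all genes tested was 1.77% in DESeq2 (0.984% lower and 0.784% higher), and over the genes with a paired symbol it was 6.77%. Since presence in that list is part of how a gene got its symbol, the 5 calls are no independent evidence. After Benjamini-Hochberg adjustment over all genes tested no member passed in edgeR (smallest adjusted P = 0.9998), in DESeq2 (smallest adjusted P among members = 0.999751) or in voom with limma, while 2, 5 and 1 members had an unadjusted P of 0.05 or less in these tools. That P alone was reached by 2.62% of all genes in edgeR, 3.2% in DESeq2 and 2.3% in voom. The 1 member in voom, SLC39A8, also passed the fold threshold there, as did 1.1% of all genes.

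**Figure D1:**
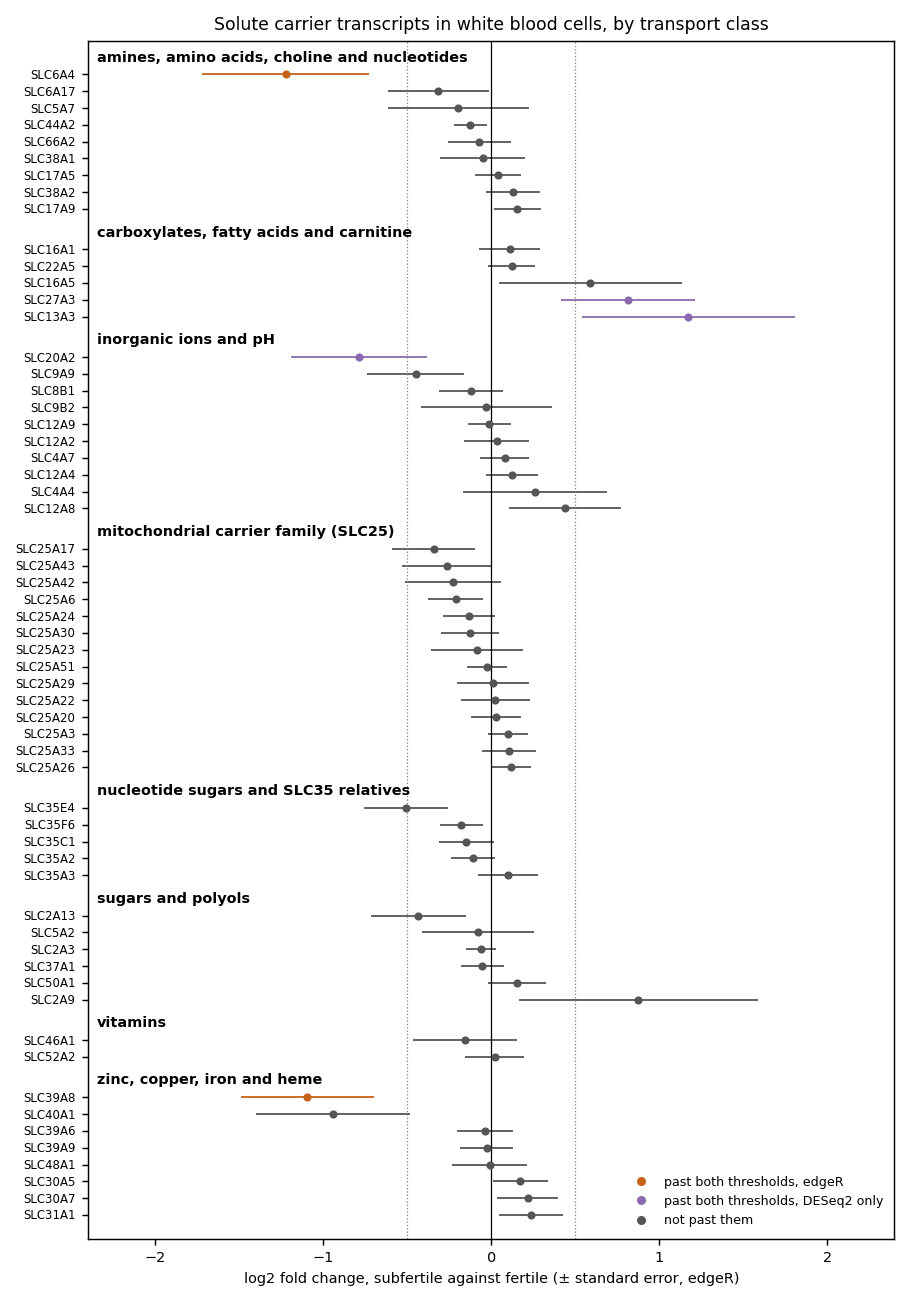
Log2 fold change of 59 of the 60 SLC transcripts, subfertile against fertile, from edgeR with its standard error (bars), in rows by transport class; dotted lines mark -0.5 and 0.5. Most points sit near 0, SLC6A4 and SLC39A8 (orange) are the 2 members past both thresholds in edgeR, and SLC20A2, SLC27A3 and SLC13A3 (purple) are past them in DESeq2 only.

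The metal transporters had 8 members, of which 1 passed the thresholds in edgeR, beside 1.4% of all genes tested. SLC39A8 (ENSBTAG00000005668) stood at 0.792, 0.902, 1.15, 0.791, 1.20 and 0.846 CPM in fertile heifers 1 to 6. In subfertile heifers 1 to 6 it stood at 0.140, 0.786, 0.219, 0.427, 0.521 and 0.592 CPM. Every subfertile value was below every fertile value, but by the narrowest margin, since subfertile heifer 2 (0.786 CPM) nearly met fertile heifer 4 (0.791 CPM).

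Mean SLC39A8 was 0.948 ± 0.184 CPM (SD, n = 6) in the fertile group against 0.447 ± 0.240 CPM in the subfertile group. The log2FC was -1.10 (SE 0.39). The two-sided exact permutation test over all splits of the 12 heifers into 6 and 6 gave P = 0.00216, the smallest it can give, and an adjusted P of 1 over all genes, beside P = 0.0147 in edgeR before adjustment and 0.9998 after it. Groups did not overlap for 0.123% of all genes tested, and SLC39A8 was the 1 such member.

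The transcript is scarce: its counts were 12 to 25 per fertile library and 3 to 11 per subfertile library. It met the count rule through all 6 fertile but only 2 subfertile libraries, so its place among the members depends on the group in which it is higher. Its call, its permutation P and the lack of overlap are given as a description. It passed the thresholds with each of the 12 heifers left out in turn, with log2FC between -1.32 and -0.90. These fits share most heifers and the same choice of member, so they add no support.

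SLC40A1 (ENSBTAG00000010498) encodes ferroportin, the iron exporter of macrophages, enterocytes and red cell precursors. It stood at 65.6, 251, 160, 96.8, 237 and 582 CPM in fertile heifers 1 to 6, and at 56.2, 171, 84.5, 150, 186 and 76.9 CPM in subfertile heifers 1 to 6. Fertile heifer 6 was far above all others, and the groups otherwise overlapped over most of their range.

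The SLC40A1 log2FC was -0.94 (SE 0.46), with P = 0.0589 in edgeR and P = 0.203 in the exact permutation test. It passed the thresholds of edgeR in 3 of the 12 fits that leave out 1 heifer, with log2FC of -1.14 without fertile heifer 1, -1.10 without fertile heifer 4 and -1.11 without subfertile heifer 5. Without fertile heifer 6 the log2FC was -0.43. It also passed with library size alone in place of TMM (-0.95). With the summed level of 5 platelet markers in the model, a covariate chosen after the values were seen, the log2FC was -0.16 and did not pass, and over the 12 heifers SLC40A1 had r = 0.928 and rho = 0.846 with that sum. Of the 13 partner genes of iron and heme handling, 6 had a paired identifier (TFRC, FTH1, HMOX1, IREB2, ACO1 and BACH1), and 0 of the 6 passed the thresholds in edgeR or DESeq2, with log2FC between -0.23 and 0.32. EPB42, a red cell membrane protein and the 1 erythroid marker of 11 with a paired identifier, passed the thresholds in edgeR and DESeq2 with a log2FC of -0.96, at 1.88 to 5.44 CPM in fertile and 0.602 to 2.64 CPM in subfertile heifers. Its part in the SLC40A1 values was not tested.

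The other 6 metal transporters stayed within 0.24 of 0 in log2FC. They are the zinc importers SLC39A6 (-0.04) and SLC39A9 (-0.03), the zinc carriers of the secretory pathway SLC30A5 (0.17) and SLC30A7 (0.22), the copper importer SLC31A1 (0.24) and the heme transporter SLC48A1 (-0.01). None of the 6 passed the thresholds in edgeR or in DESeq2. None of the 4 listed zinc buffering genes (MTF1 and the metallothioneins) had a paired identifier.

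Amines, amino acids, choline and nucleotides are carried by 9 members, of which 1 passed the thresholds in edgeR, beside 1.4% of all genes tested. SLC6A4 (ENSBTAG00000019349), the serotonin transporter, stood at 7.55, 32.6, 26.0, 16.0, 30.3 and 94.7 CPM in fertile heifers 1 to 6. In subfertile heifers 1 to 6 it stood at 7.27, 20.1, 6.89, 23.8, 15.6 and 15.2 CPM. All 6 subfertile values were below the fertile median, yet fertile heifers 1 and 4 lay inside the subfertile range, and fertile heifer 6 was highest by a wide margin.

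Mean SLC6A4 was 34.5 ± 30.9 CPM (SD, n = 6) in the fertile group against 14.8 ± 6.77 CPM in the subfertile group. The log2FC was -1.22 (SE 0.50), with P = 0.0271 in edgeR and P = 0.0254 in DESeq2 before adjustment, P = 0.0889 in voom, and P = 0.119 in the exact permutation test. Without fertile heifer 6 the log2FC was -0.61, without subfertile heifer 1 it was -1.08 and without subfertile heifer 3 it was -1.08, and in these 3 edgeR fits the P threshold was not passed. With any other heifer left out the thresholds were still passed. The call was also lost in 2 edgeR fits with a covariate chosen after the values were seen. With the summed level of 5 platelet markers in the model the log2FC was -0.32, and over the 12 heifers SLC6A4 had r = 0.949 and rho = 0.909 with that sum. With the summed level of 3 monocyte markers it was -0.95. In bulk samples such as these, fewer cells of a type and less RNA per cell cannot be told apart.

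The neutral amino acid transporters SLC38A1 and SLC38A2 are neighbouring genes in the RefSeq order of ARS-UCD2.0. SLC38A2 differed by a log2FC of 0.13 (SE 0.16) and SLC38A1 by -0.05 (SE 0.25), with exact permutation P of 0.491 and 0.688. Both were highest in subfertile heifer 1, at 603 CPM for SLC38A2 and 24.8 CPM for SLC38A1. The choline transporter-like SLC44A2 had a small SD of log2 CPM, 0.156, which was the 31.6th percentile for its abundance. It stood at 490 to 618 CPM in fertile and 468 to 587 CPM in subfertile heifers (log2FC -0.12, SE 0.10). The vesicular nucleotide transporter SLC17A9 (0.15), the lysosomal sialic acid exporter SLC17A5 (0.04), the choline transporter SLC5A7 (-0.20), SLC6A17 (-0.32) and SLC66A2 (-0.07) did not pass the thresholds in either tool. None of the 7 listed genes of platelet serotonin storage and signalling had a paired identifier.

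Carboxylates, fatty acids and carnitine are carried by 5 members. All 5 had a log2FC above 0, as did 6741 of the 13012 genes tested, and their median was 0.59. None passed the thresholds in edgeR and 2 did in DESeq2, beside 1.4% and 1.77% of all genes tested. Those 2, SLC13A3 and SLC27A3, are in the list of differentially expressed genes that helped to name the members. SLC16A1 and SLC22A5 stood at 0.11 and 0.12. SLC13A3 (ENSBTAG00000000873), a sodium-coupled transporter of succinate and other dicarboxylates, stood at 2.90, 7.29, 1.45, 4.89, 2.94 and 1.57 CPM in fertile heifers 1 to 6. In subfertile heifers 1 to 6 it stood at 3.22, 2.36, 2.74, 19.8, 17.4 and 2.04 CPM. Subfertile heifers 4 and 5 were high and the other 4 lay within the fertile range.

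The SLC13A3 log2FC was 1.17 (SE 0.63), with P = 0.0848 in edgeR, P = 0.0452 in DESeq2 and P = 0.327 in the exact permutation test. Leaving out subfertile heifer 4 brought it to 0.66, and leaving out subfertile heifer 5 to 0.78. It passed the thresholds of edgeR in 2 of the 12 fits that leave out 1 heifer, at 1.51 without fertile heifer 2 and 1.37 without subfertile heifer 6. The same pair of heifers was highest for SLC16A5, a member of the monocarboxylate transporter family, at 5.41 and 4.86 CPM beside 0.241 to 4.21 CPM in fertile heifers (log2FC 0.59, SE 0.55, exact permutation P = 0.247). With 1 heifer left out the SLC16A5 log2FC ran from 0.34 without subfertile heifer 4 to 0.94 without fertile heifer 2, and it passed the thresholds of edgeR in 0 of the 12 fits.

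SLC27A3 (ENSBTAG00000021862), which activates long-chain fatty acids, stood at 2.22, 3.08, 3.15, 2.32, 1.69 and 2.05 CPM in fertile heifers 1 to 6. It stood at 2.94, 4.36, 1.75, 4.34, 10.3 and 1.83 CPM in subfertile heifers 1 to 6. Subfertile heifer 5 was highest, and 3 subfertile heifers were above every fertile one.

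The SLC27A3 log2FC was 0.81 (SE 0.40), with P = 0.0616 in edgeR, P = 0.0466 in DESeq2 and P = 0.197 in the exact permutation test. It passed the thresholds of edgeR in 2 of the 12 fits that leave out 1 heifer, at 0.98 without subfertile heifer 3 and 0.97 without subfertile heifer 6. Without subfertile heifer 5 it was 0.33. The lactate and pyruvate transporter SLC16A1 (log2FC 0.11, SE 0.18) and the carnitine importer SLC22A5 (0.12, SE 0.14) differed little. BSG, the partner that brings SLC16A1 to the cell surface, had a log2FC of 0.01 and did not pass the thresholds. None of the 8 listed genes of the carnitine shuttle and fatty acid oxidation had a paired identifier.

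**Figure D2:**
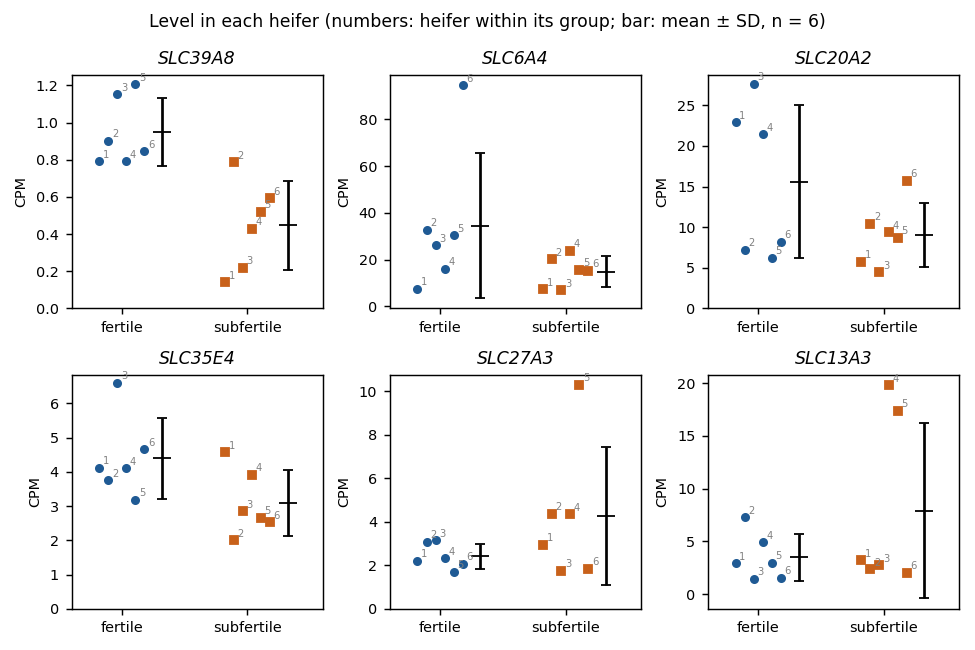
CPM of 6 SLC transcripts in each heifer (y axis, linear from near 0), fertile as blue circles and subfertile as orange squares numbered by heifer, with the mean and SD of 6 heifers as black bars. SLC39A8 separates the groups by a narrow margin, the SLC6A4 mean is drawn up by fertile heifer 6 at 94.7 CPM, and the SLC13A3 mean by subfertile heifers 4 and 5 at 19.8 and 17.4 CPM.

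Inorganic ions and pH are handled by 10 members, of which none passed the thresholds in edgeR and 1 did in DESeq2. The shares over all genes tested were 1.4% and 1.77%. SLC20A2 (ENSBTAG00000014861), a sodium-coupled phosphate importer, stood at 22.9, 7.21, 27.6, 21.5, 6.26 and 8.22 CPM in fertile heifers 1 to 6. In subfertile heifers 1 to 6 it stood at 5.78, 10.4, 4.43, 9.39, 8.68 and 15.7 CPM. Fertile heifers 1, 3 and 4 were above all the rest, and the other 3 fertile heifers lay within the subfertile range.

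Mean SLC20A2 was 15.6 ± 9.43 CPM (SD, n = 6) in the fertile group against 9.07 ± 3.96 CPM in the subfertile group. The log2FC was -0.79 (SE 0.40), with P = 0.0721 in edgeR, P = 0.0432 in DESeq2 and P = 0.201 in the exact permutation test. It passed the thresholds of edgeR in 4 of the 12 fits that leave out 1 heifer.

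The endosomal sodium-proton exchanger SLC9A9 had a log2FC of -0.45 (SE 0.29, exact permutation P = 0.201), and its highest value, 60.5 CPM, was again in fertile heifer 6. Without that heifer the log2FC was -0.22, and without subfertile heifer 4 it was -0.67 and the thresholds of edgeR were passed. The chloride cotransporters SLC12A2 (0.03), SLC12A4 (0.12) and SLC12A9 (-0.01), the bicarbonate transporters SLC4A7 (0.08) and SLC4A4 (0.26), the mitochondrial sodium-calcium exchanger SLC8B1 (-0.12) and the sodium-proton exchanger SLC9B2 (-0.03) did not pass in either tool. The SLC4A4 log2FC was 0.03 without subfertile heifer 1, 0.48 without fertile heifer 1 and 0.46 in voom. SLC12A8 had a log2FC of 0.44 (SE 0.33) at 0.424 to 1.49 CPM.

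The 6 sugar and polyol transporters gave no call in either tool. SLC2A3, a high-affinity glucose transporter, had the smallest spread of all members, with an SD of log2 CPM of 0.134 over the 12 heifers and a range from 168 to 243 CPM. Against genes of like abundance it lay at the 20.7th percentile of spread. Its log2FC was -0.06 (SE 0.09), with a 95% interval from -0.26 to 0.13. By contrast SLC2A9, a urate transporter, had the largest spread (SD 1.32), from 0.0964 CPM in fertile heifer 5 to 5.33 CPM in subfertile heifer 4. Its log2FC was 0.88 (SE 0.71, exact permutation P = 0.188), and fertile heifer 3 at 3.82 CPM exceeded 5 of the 6 subfertile heifers. Without fertile heifer 3 the log2FC was 1.71 and the thresholds of edgeR were passed, and without subfertile heifer 4 it was 0.39. The myo-inositol transporter SLC2A13 (-0.43), the sodium-glucose cotransporter SLC5A2 (-0.08), the glucose-6-phosphate carrier SLC37A1 (-0.05) and the sugar transporter SLC50A1 (0.15) had SE of 0.13 to 0.34. Of 16 listed glycolysis genes, 6 had a paired identifier (HK1, PFKM, PFKP, PGK1, PKM and LDHA) and 0 of the 6 passed the thresholds in edgeR or DESeq2, with log2FC between -0.42 and 0.26.

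The mitochondrial carrier family was the most numerous class, with 15 members, and 0 of the 15 passed the thresholds in either tool. Its log2FC ran from -0.34 for SLC25A17 to 0.12 for SLC25A26, with a median of -0.06, and all 15 had an absolute log2FC under 0.5, beside 92.6% of all genes tested. The phosphate carrier SLC25A3 (0.10), the carnitine-acylcarnitine carrier SLC25A20 (0.03), the NAD carrier SLC25A51 (-0.03) and the S-adenosylmethionine carrier SLC25A26 (0.12) had SE of 0.12 to 0.15. The ATP/ADP carrier SLC25A6 had a log2FC of -0.21 (SE 0.16), which was -0.11 without fertile heifer 4, where it was highest. Its counts are treated as uncertain, since it has close paralogs and reads shared with them were not examined. SLC25A17, a peroxisomal carrier of coenzyme A and related cofactors, stood at 20.01 to 69.8 CPM in fertile and 20.97 to 34.4 CPM in subfertile heifers, with fertile heifer 6 at the top (log2FC -0.34, SE 0.25). Without that heifer its log2FC was -0.03.

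Among the 5 nucleotide sugar carriers and relatives, SLC35E4 stood apart. It stood at 4.12, 3.76, 6.60, 4.10, 3.18 and 4.65 CPM in fertile heifers 1 to 6, and at 4.57, 2.0, 2.84, 3.91, 2.66 and 2.53 CPM in subfertile heifers 1 to 6. Subfertile heifers 1 and 4 lay within the fertile range and the other 4 below it. The log2FC was -0.51 (SE 0.25), with P = 0.0627 in edgeR and P = 0.0532 in DESeq2, and with P = 0.0411 in the exact permutation test, which gave a P of 0.05 or less for 2 members and for 2.71% of all genes tested. SLC35E4 passed the thresholds of edgeR in 3 of the 12 fits that leave out 1 heifer (fertile heifer 5, subfertile heifer 1 or subfertile heifer 4), and its log2FC was -0.36 without fertile heifer 3. The UDP-galactose carrier SLC35A2 (-0.11), the UDP-N-acetylglucosamine carrier SLC35A3 (0.10), the GDP-fucose carrier SLC35C1 (-0.15) and SLC35F6 (-0.18) had SE of 0.13 to 0.18. The vitamin transporters were the riboflavin transporter SLC52A2 (log2FC 0.02, SE 0.18) and the proton-coupled folate transporter SLC46A1 (-0.16, SE 0.31), and neither passed.

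Spread between heifers, with the groups ignored, was set against genes of like abundance, in 10 bins of equal size by mean log2 CPM. Of the 60 members, 9 (15%) were above the 90th percentile of their bin: SLC6A4, SLC40A1, SLC13A3, SLC20A2, SLC9A9, SLC9B2, SLC16A5, SLC2A9 and SLC25A17. The SD of log2 CPM was 1.07 for SLC6A4 and 0.97 for SLC40A1, which placed them at the 98.8th and 98.5th percentile of their bins. Below the 10th percentile were 4 members, SLC12A8, SLC5A2, SLC35C1 and the pyrimidine nucleotide carrier SLC25A33. The median SD was 0.326 for the members and 0.302 for all genes tested. For spread too, the share among only the genes with a paired symbol was not computed, so no trait of the family is shown. SLC9B2 ran from 7.06 to 30.1 CPM in fertile and from 5.97 to 24.9 CPM in subfertile heifers, with a log2FC of -0.03 and a 95% interval from -0.87 to 0.81.

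The 4 transcripts that were highest in fertile heifer 6 and wide in spread, SLC6A4, SLC40A1, SLC25A17 and SLC9A9, were set against the platelet markers. This relation was chosen after the values were seen. Only 5 of 12 listed platelet markers had a paired identifier. Their summed level was 537 to 9922 CPM (median 2448) in fertile and 528 to 3166 CPM (median 1417) in subfertile heifers, and 0 of the 5 passed the thresholds in edgeR and 1 (GP5) in DESeq2. The log2FC of the 5 markers lay between -1.87 and -0.34. Over the 12 heifers the log2 levels of SLC25A17 (Pearson r = 0.951, Spearman rho = 0.895), SLC6A4 (r = 0.949, rho = 0.909), SLC9A9 (r = 0.930, rho = 0.916) and SLC40A1 (r = 0.928, rho = 0.846) rose with that sum. The permutation P adjusted over all genes was 0.0020, 0.0020, 0.0020 and 0.0023 for r and 0.0228, 0.0182, 0.0138 and 0.0417 for rho. The 4 transcripts were chosen for their peak in fertile heifer 6, where the sum also peaks. A high r was thereby partly built in, and the adjustment over genes does not account for that choice.

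In all, 11 of the 60 members (18.3%) had an adjusted permutation P of 0.05 or less for r, beside 10.5% of all genes. Positive relations were 5, beside 6.78% of all genes, SLC37A1 (r = 0.831) included. Negative relations were 6, beside 3.73% of all genes: SLC30A5, SLC12A4, SLC38A2, SLC35A3, SLC4A7 and SLC31A1, with r between -0.846 and -0.750. For rho 6 members passed, which is 10% of them, beside 2.82% of all genes. The members got their symbols through lists of pairs that co-vary in these same libraries. The share among only the genes with a paired symbol was not computed for r or rho. An excess over all genes is therefore not shown to be a trait of the SLC family. Within the fertile heifers r was 0.963 for SLC25A17, 0.995 for SLC6A4, 0.946 for SLC9A9 and 0.968 for SLC40A1. Within the subfertile heifers it was 0.987, 0.849, 0.945 and 0.807.

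Without fertile heifer 6 and subfertile heifer 1, the 2 farthest from the median of the sum, r was 0.940 for SLC25A17, 0.881 for SLC6A4, 0.832 for SLC9A9 and 0.821 for SLC40A1. Among all members only SLC25A17 then had an adjusted P of 0.05 or less (0.0471), while the number of all genes passing fell from 1367 to 58 with the 10 heifers left. With the platelet sum as a covariate in edgeR, in which SLC6A4 and SLC40A1 did not pass the thresholds, SLC39A8 (-0.99) and SLC27A3 (0.89) passed them. The eosinophil marker CCR3 was also highest in fertile heifer 6, at 207 CPM beside 10.9 to 51.4 CPM in the other 11 heifers, and its part in these values was not tested. Of the 2 NK cell markers with a paired identifier, GZMB passed the thresholds in edgeR and DESeq2 (log2FC -1.004), at 3.33 to 19.2 CPM in fertile and 2.56 to 8.44 CPM in subfertile heifers, and PRF1 did not. Their part in the SLC values was not tested.

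**Figure D3:**
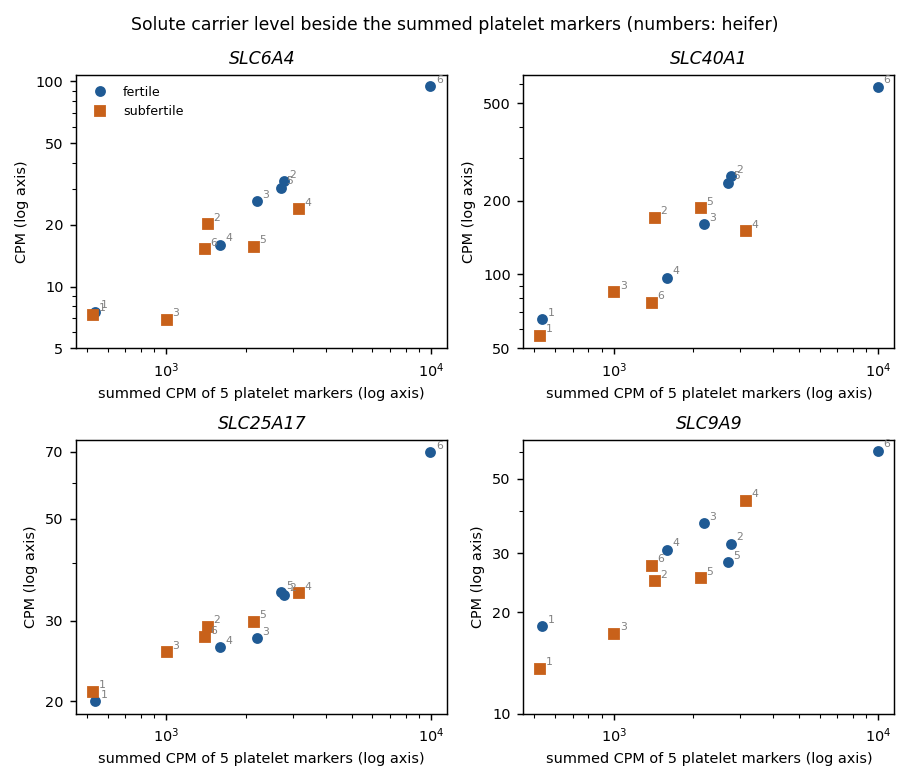
CPM of SLC6A4, SLC40A1, SLC25A17 and SLC9A9 (y axes, log scale) against the summed CPM of 5 platelet markers (x axis, log scale) in each heifer, fertile as blue circles and subfertile as orange squares. All 4 transcripts rise with the sum in both groups, and fertile heifer 6 lies far to the upper right at 9922 CPM.

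The monocyte markers were summed in the same way, also after the values were seen, since subfertile heifers 4 and 5 were high for SLC13A3, SLC16A5 and SLC2A9. The sum of these 3 markers was 28.6 to 328 CPM (median 217) in fertile and 76.3 to 428 CPM (median 131) in subfertile heifers. It was 428 and 276 CPM in subfertile heifers 4 and 5, beside 328 and 293 CPM in fertile heifers 2 and 3. The summed level of the 3 neutrophil markers with a paired identifier of 9 (CXCR2, S100A9 and FCGR3A) was likewise highest in subfertile heifers 4 and 5, at 248 and 255 CPM, beside 67.9 to 236 CPM in fertile and 85.2 to 133 CPM in the other subfertile heifers, and its part in these values was not tested. For SLC13A3 r was 0.655 and rho 0.601 over the 12 heifers, with permutation P adjusted over all genes of 0.360 and 0.505. For SLC16A5 r was 0.633 and rho 0.671, with adjusted permutation P of 0.412 and 0.379. For SLC2A9 r was 0.560 and rho 0.545, with adjusted permutation P of 0.560 and 0.593. Within the subfertile heifers r was 0.957 for SLC13A3, 0.825 for SLC16A5 and 0.986 for SLC2A9, and within the fertile heifers it was 0.490, 0.607 and 0.383. Subfertile heifers 4 and 5 were the highest of their group for all 3 transcripts and for the sum. The choice of the sum therefore set much of the r within the subfertile heifers. Without fertile heifer 6 and subfertile heifer 4, the 2 farthest from the median of the sum, r was 0.478, 0.555 and 0.507. The adjusted permutation P was then 0.927, 0.845 and 0.906. Of the 60 members only the mitochondrial exchanger SLC8B1 passed (r = 0.848, adjusted permutation P = 0.0429; rho = 0.867, adjusted P = 0.0543), beside 1.45% of all genes, and without fertile heifer 6 and subfertile heifer 4 it did not (r = 0.817, adjusted P = 0.219). With the monocyte sum as a covariate the log2FC of SLC13A3 was 0.73 and did not pass the thresholds of edgeR.

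Single heifers set many of the extremes. Subfertile heifer 1 had the highest value for 13 members and the lowest for 12, where it was highest for 15.0% and lowest for 14.6% of all genes tested. It was highest for SLC12A2, SLC12A4, SLC4A7, SLC38A1, SLC38A2, SLC30A7, SLC31A1 and SLC35A3 among others, and lowest for SLC39A8, SLC40A1, SLC9A9 and SLC25A6, among others. Fertile heifer 6 was highest for 9 members and lowest for 8, and subfertile heifer 5 highest for 8 and lowest for 9. These shares lie near those over all genes, which were 13.7% and 12.4% for fertile heifer 6 and 13.3% and 13.8% for subfertile heifer 5.

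**Figure D4:**
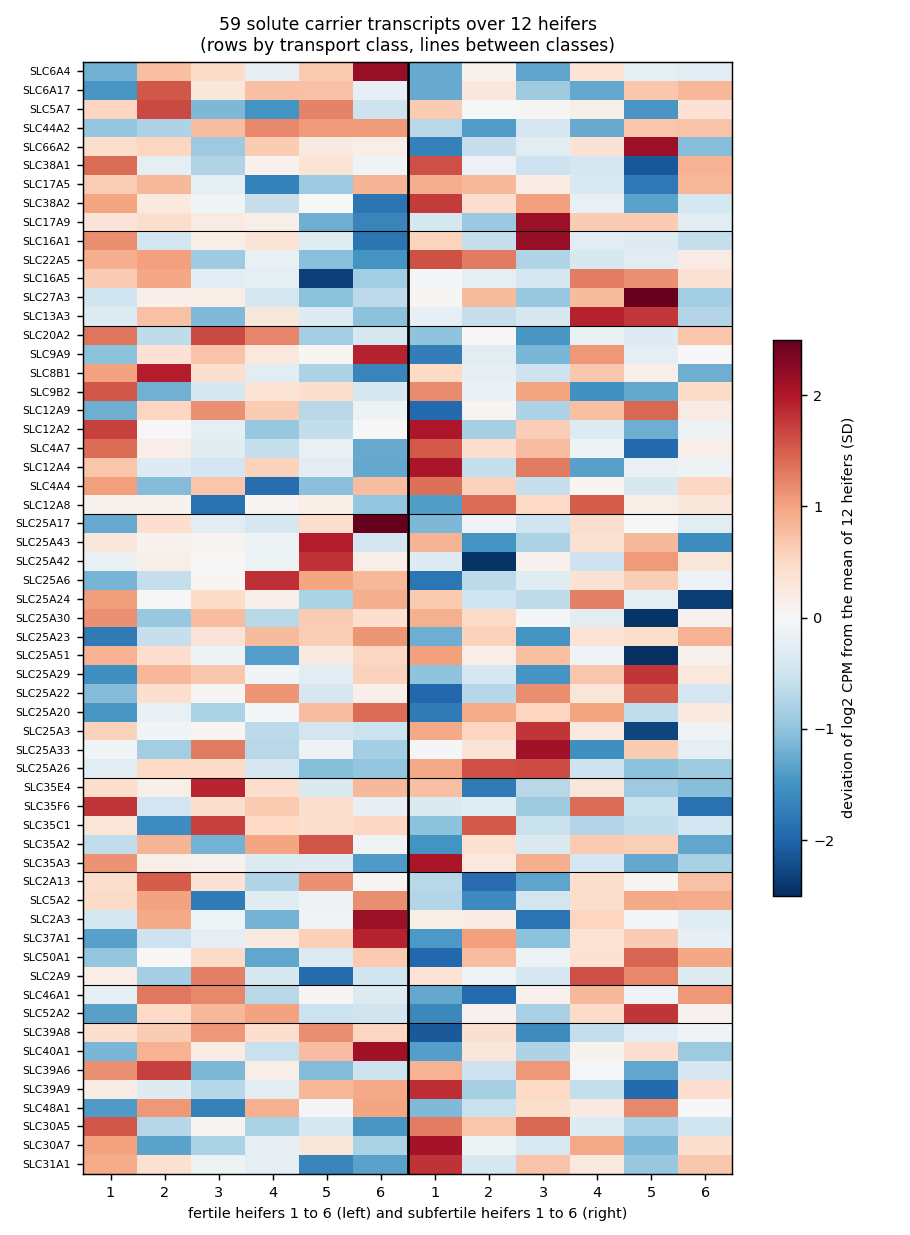
Deviation of log2 CPM from the mean of the 12 heifers, in SD of that gene (colour, red above and blue below), for 59 of the 60 SLC transcripts in rows and fertile and subfertile heifers 1 to 6 in columns. Subfertile heifers 1 and 5 and fertile heifer 6 hold many of the strongest colours, and no transport class as a whole divides the 2 groups.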

How the data were processed

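RNA-seq of PWBCs from 12 heifers, 1 poly(A) strand-specific library each, was used. The values deposited by the authors are raw read counts per Ensembl gene, made with STAR 2.7.5 on ARS-UCD1.3 and Ensembl release 109, after FastQC 0.11.9 and MultiQC 1.12. The strand column taken is not given in the sources used here. RNA was extracted in a single batch.

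Genes were kept with filterByExpr (minimum count 10, 70%, by group). Counts were scaled by TMM, and edgeR 4.0.16 (R 4.3.3) fitted group as the only term for its quasi-likelihood F test. The call thresholds are those of the study. DESeq2 1.42.0 (the authors' tool; no independent filtering) and voom with limma 3.58.1 were alternatives. The SE is the absolute log2FC over the square root of F. Adjusted P is Benjamini-Hochberg over all genes tested. Two-sided exact permutation tests compared group means of log2 CPM (prior count 2). Relations to marker sums used log2 values, 100000 permutations and scipy 1.17.1. The code was tested on simulated data.

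The members and gene lists were chosen with earlier results of these data known. The rule for named genes took those called by edgeR or DESeq2, those in the study's list of differentially expressed genes, the largest log2FC in each class, the 5 most and least variable, and SLC40A1 and SLC38A1. Values in every heifer are given for some of these, and the others, like the remaining members, are given by log2FC, range or class. The 4 relations planned between single transcripts and marker lists required 80% of a list to be paired and were not run. Per-length levels and sequences were not used here. Of the 60 members, 1 counted in the totals is not reported here by itself.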

Additional observations from a re-analysis of the deposited data

Results flagged for a closer look

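SLC2A3, a glucose transporter, had the smallest SD of log2 CPM of the members, though not the lowest percentile for its abundance (20.7th). Within the subfertile heifers its lowest value stood away from the rest: 167.69 CPM in heifer 3, where the other 5 lay between 194 and 209 CPM. The gap took a share of 0.651 of the group's range in log2 CPM, the scale examined, and of 0.626 in CPM, barely above the critical value of 0.625 for 6 samples. Of 34 groups of 6 heifers examined in this way (17 transcripts in 2 groups), 1 stood out, and chance alone marks about 1 in 20.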

How the results depend on the processing

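The number of members past the thresholds was 2 in edgeR, 5 in DESeq2 and 1 in voom. It was 1 (SLC6A4) with at least 10 counts in every library, which drops SLC39A8 from the genes tested, 3 with library size alone or with no filter (SLC40A1 added), 1 (SLC39A8) with the monocyte sum in the model and 0 by adjusted P. Leaving out 1 heifer at a time gave 2 to 5 members, and SLC39A8 was among them each time. SLC39A8 is a member through its fertile libraries and these fits share most heifers, so this adds no support to its call. The median log2FC of the members lay between -0.06 and 0.01 throughout.

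The sign of the log2FC turned for 12 members with the platelet sum in the model: SLC12A2 (-0.13), SLC12A4 (-0.043), SLC12A9 (0.060), SLC16A1 (-0.031), SLC25A17 (0.031), SLC25A23 (0.15), SLC35A3 (-0.085), SLC37A1 (0.072), SLC38A2 (-0.024), SLC48A1 (0.15), SLC4A7 (-0.048) and SLC5A2 (0.027). With the monocyte sum it turned for SLC25A29 (-0.011), with the tract score for SLC12A2 (-0.0067) and SLC25A22 (-0.0022), with voom for SLC25A22 (-0.025), SLC25A29 (-0.018), SLC48A1 (0.028) and SLC52A2 (-0.00055) and with library size alone for SLC39A9 (0.0055). Leaving out 1 heifer at a time turned the sign of 22 members in at least 1 fit, each with a log2FC within 0.20 of 0 when all heifers were used, over these ranges: SLC12A2 (-0.14 to 0.18), SLC12A9 (-0.084 to 0.064), SLC16A1 (-0.049 to 0.20), SLC17A5 (-0.022 to 0.11), SLC25A20 (-0.041 to 0.11), SLC25A22 (-0.10 to 0.14), SLC25A23 (-0.22 to 0.030), SLC25A29 (-0.17 to 0.11), SLC25A51 (-0.082 to 0.062), SLC35A3 (-0.051 to 0.19), SLC37A1 (-0.11 to 0.032), SLC38A1 (-0.25 to 0.093), SLC39A6 (-0.11 to 0.068), SLC39A9 (-0.15 to 0.064), SLC48A1 (-0.12 to 0.075), SLC4A7 (-0.00021 to 0.17), SLC52A2 (-0.12 to 0.11), SLC5A2 (-0.22 to 0.043), SLC5A7 (-0.37 to 0.057), SLC66A2 (-0.25 to 0.015), SLC8B1 (-0.23 to 0.033) and SLC9B2 (-0.24 to 0.28). The cause was not tested. Without the 2 heifers farthest from the median, 1 member was related to the platelet sum and 0 to the monocyte sum, and with library size alone 0 were related to the monocyte sum. No paired analysis was possible because the labels carry no replicate numbers shared by the groups. Naming members from the reference was not run, since that table does not pair the identifiers. At the counts of SLC39A8, SLC12A8, SLC5A7 and SLC2A9, only large differences can be told from the spread.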
